A study of Mus musculus with 12 samples.

Results

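The cell cycle and DNA replication genes of mouse alveolar macrophages were followed here as a set of 44 genes, fixed by symbol, among the 23413 genes counted in the series. All 44 were found in the count table and all 44 passed a filter on low counts that left 12748 genes. They fall into 19 genes of the S phase, in which DNA is copied, and 25 genes of mitosis, in which the chromosomes are parted. Alveolar macrophages are the resident macrophages of the air spaces and were collected by lavage.

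The study had 12 RNA-seq libraries in 6 groups of 2, and its title puts the vitamin D3 and VDR axis, that is the hormone and its receptor, at the centre of how these cells are kept and work. Fresh cells came from Vdr knockout and wild-type mice at 10 weeks of age, and from Vdr knockout and wild-type mice at 4 weeks. Wild-type cells were also kept in culture for 24 h with 50 nM vitamin D3 or with none. No source used here gives the knockout allele, the strain, whether libraries pooled mice, or the age of the mice whose cells were cultured. P-values therefore measure only how far these libraries spread, some of which may be technical. Levels are CPM, counts scaled to library size by the TMM method, and a fold change is given on the log2 scale with a standard error. That error was derived from the fold change and the F statistic of its test, so it adds no separate measure of spread.

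Total counts ran from 10409572 to 23233674 per library, so that 1 count was worth 0.0904 CPM or less, and replicates differed by more than sampling noise. Vdr did not separate the genotypes at 10 weeks, with 84.2 and 45 CPM in the libraries labelled knockout and 79.6 and 126.9 CPM in wild type. The description codes of 2 libraries at 10 weeks, knockout replicate 1 and wild-type replicate 2, name the opposite genotype, so every 10-week direction below rests on the genotype label. At 4 weeks Vdr was at 45.9 and 31.3 CPM in knockout libraries and 56.5 and 57.7 CPM in wild type. Both 10-week libraries numbered 2 held Xist, at 787.3 CPM in knockout and 800.3 CPM in wild type, against under 1 CPM in the other libraries. Ddx3y, a gene of the Y chromosome, was at 0 and 0.475 CPM in those 2 libraries and between 63.8 and 94.7 CPM in the others. By these genes those 2 libraries were female and all others male. All 4-week libraries carry the D14-5 title series, while each 10-week and culture group has 1 library of it and 1 of the D14-1 series. Markers of alveolar macrophages summed to between 12070 and 42920 CPM, and none of the 10 was at 0 in any library. T cell markers summed to between 125 and 253.9 CPM, nearly all of it Cd2 at 120.2 to 245.6 CPM, while the rest of that list reached 8.31 CPM and the defining Cd3e 1.345 CPM at most. Monocyte markers summed to between 179.4 and 3832 CPM and red cell markers to between 0.541 and 3151 CPM. B cell markers summed to 5.59 CPM at most, stromal and endothelial markers to 7.01 CPM at most and neutrophil markers to between 26.8 and 114.1 CPM. In bulk RNA, fewer dividing cells and less RNA of these genes per cell cannot be told apart.

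As background, alveolar macrophages maintain themselves by dividing in the lung, most actively in young animals, with little input from blood monocytes in the steady state. A dividing cell first makes the enzymes that build nucleotides and copy DNA, under E2F transcription factors. Later it makes the cyclins, kinases, motors and centromere proteins of mitosis, many of them under the DREAM and B-MYB to FOXM1 complexes, which reach promoters through CHR elements. Cells at rest hold both sets low.

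Promoter letters are shown first because many members moved together. RefSeq promoters (GRCm38.p6, 250 bases before to 50 after the gene start) were matched by symbol for 36 of the 44 members, as 39 sequences. The E2F element was searched as TTTCCCGC, TTTGGCGC or TTTCGCGC, the CHR as TTTGAA or TTTAAA, and the CCAAT box as CCAAT, each on both strands. The 6 promoters below belong to the 3 members of each division with the smallest p for any difference among the 6 groups that had a sequence, S-phase members first. Capitals mark matches to any of the 3 motifs, and adjoining or overlapping matches run together.
Tk1 (chr11:117825965-117826264, minus strand): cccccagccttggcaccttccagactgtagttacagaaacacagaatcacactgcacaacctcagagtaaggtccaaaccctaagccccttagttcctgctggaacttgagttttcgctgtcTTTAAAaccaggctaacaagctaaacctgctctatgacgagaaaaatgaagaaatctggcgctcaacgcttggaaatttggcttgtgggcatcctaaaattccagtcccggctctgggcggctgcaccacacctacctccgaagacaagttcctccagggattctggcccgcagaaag
Mcm7 (chr5:138171834-138172133, minus strand): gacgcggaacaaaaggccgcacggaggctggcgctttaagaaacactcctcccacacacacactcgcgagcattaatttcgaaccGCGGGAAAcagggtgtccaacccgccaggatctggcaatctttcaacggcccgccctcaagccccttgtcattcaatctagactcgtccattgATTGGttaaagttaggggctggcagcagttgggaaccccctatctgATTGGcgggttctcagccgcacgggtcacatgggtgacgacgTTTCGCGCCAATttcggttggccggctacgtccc
Uhrf1 (chr17:56303087-56303386, plus strand): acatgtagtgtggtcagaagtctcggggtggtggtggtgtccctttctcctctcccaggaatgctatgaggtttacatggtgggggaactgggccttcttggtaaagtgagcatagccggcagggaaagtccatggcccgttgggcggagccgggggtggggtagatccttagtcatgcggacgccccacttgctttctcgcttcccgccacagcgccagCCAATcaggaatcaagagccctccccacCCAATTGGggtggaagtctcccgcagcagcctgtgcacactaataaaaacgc
Cdc20 (chr4:118437294-118437593, minus strand): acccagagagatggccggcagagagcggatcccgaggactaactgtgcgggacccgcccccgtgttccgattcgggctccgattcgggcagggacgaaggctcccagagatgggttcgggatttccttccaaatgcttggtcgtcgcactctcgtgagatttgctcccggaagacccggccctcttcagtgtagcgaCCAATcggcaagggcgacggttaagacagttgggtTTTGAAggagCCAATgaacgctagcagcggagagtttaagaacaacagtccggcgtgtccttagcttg
Birc5 (chr11:117848987-117849286, plus strand): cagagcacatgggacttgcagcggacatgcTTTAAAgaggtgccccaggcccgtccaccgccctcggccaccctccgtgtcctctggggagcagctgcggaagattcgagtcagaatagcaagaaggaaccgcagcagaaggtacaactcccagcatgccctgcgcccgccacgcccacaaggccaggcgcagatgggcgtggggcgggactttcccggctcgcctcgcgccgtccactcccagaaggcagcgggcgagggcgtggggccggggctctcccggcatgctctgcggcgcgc
Prc1 (chr7:80294201-80294500, plus strand): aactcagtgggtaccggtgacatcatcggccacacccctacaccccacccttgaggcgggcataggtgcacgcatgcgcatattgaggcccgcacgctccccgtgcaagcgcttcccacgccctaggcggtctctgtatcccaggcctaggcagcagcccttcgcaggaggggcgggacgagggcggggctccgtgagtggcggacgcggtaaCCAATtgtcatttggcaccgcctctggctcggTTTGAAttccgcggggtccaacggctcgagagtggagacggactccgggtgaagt
With position 1 the gene start and -1 the base before it, the Cdc20 promoter held TTTGAA at -18 between CCAAT boxes at -53 and -8, and that of Prc1 held TTTGAA at -5. In Mcm7 the E2F letters began at -165, on the other strand, and at 17, where they run into a CCAAT box at 24. Uhrf1, Mcm7 and Prc1 each had another promoter sequence, not printed. That of Uhrf1 held E2F letters at -185 and CHR letters at 5, which its printed promoter lacks.

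E2F letters were found in 6 of 18 S-phase promoters (33.3%), 1 of 21 mitotic promoters (4.76%), 3.42% of the promoters of genes tested and 1.84% of all promoters. CHR letters were found in 8 of 18 S-phase promoters (44.4%) and 19 of 21 mitotic promoters (90.5%), beside 19.5% for genes tested and 27.6% for all. Within 50 bases of the start, a window chosen after the matches were seen, the CHR shares were 27.8% and 81.0%, beside 5.18% and 8.28%. CCAAT was found in 72.2% of S-phase and 90.5% of mitotic promoters, beside 37.9% and 37.4%. The median GC content was 58.0% for S-phase, 60.7% for mitotic, 60.3% for tested and 52.7% for all promoters. These shares describe letters in a window and were not tested.

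All 44 members differed among the 6 groups by the quasi-likelihood F test of edgeR with Benjamini-Hochberg adjustment over all genes tested, where the background was 58.2% of those genes. The group mean was highest in knockout cells at 4 weeks for 42 of 44 members, a place held by that group for 13.6% of genes tested. The exceptions were Cenpa, the histone H3 variant that marks centromeres, highest in vitamin D3 culture, and E2f1, an activator of S-phase genes, highest in wild type at 4 weeks. Both 4-week knockout libraries lay above all other libraries for 40 members (17 S-phase and 23 mitotic), beside 5% of genes tested. The lowest group mean was untreated culture for 40 members, vitamin D3 culture for 2, and 10-week knockout for Pcna and Bub1b, beside 17.7%, 26.5% and 13.7% of genes tested. Among fresh cells, 37 of 44 members ran in the order knockout at 4 weeks, wild type at 4 weeks, wild type at 10 weeks, knockout at 10 weeks. The share of all genes tested in that order was not counted. Neighbours in that order were not all separated: at neither age did a member pass the test between genotypes, and at 10 weeks the replicate pairs went opposite ways.

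**Figure D1:**
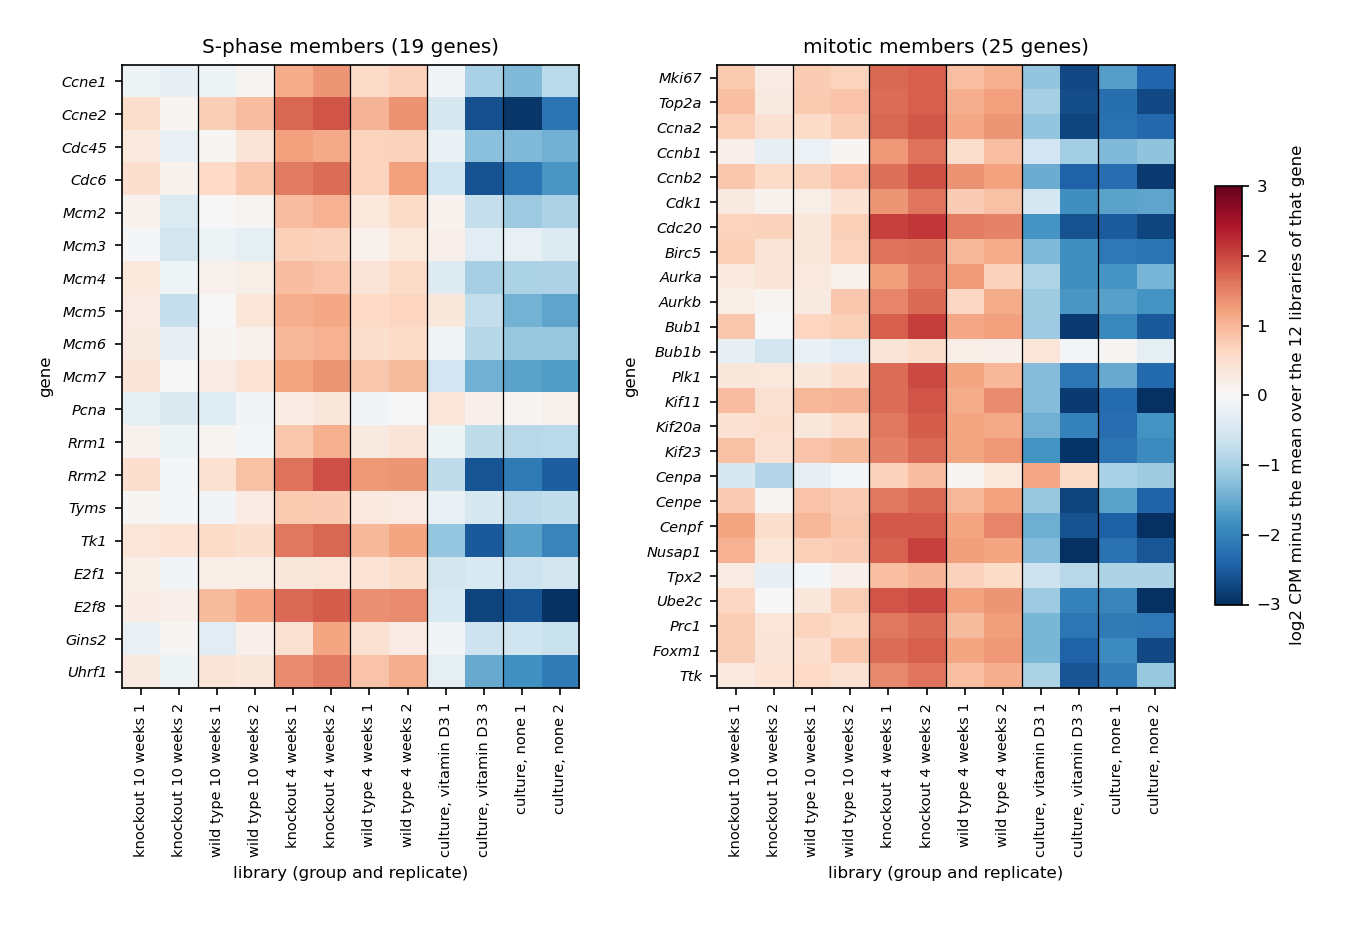
Log2 CPM of each member (rows) in each of the 12 libraries (columns, by group and replicate), less the gene's mean over the 12 libraries, for 19 S-phase genes (left) and 25 mitotic genes (right). The 4-week knockout columns are the reddest for 40 of 44 genes and the culture columns the bluest for most, while Pcna, Mcm3 and Bub1b stay pale in culture.

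Summed over the 19 S-phase members, the level was 598.7 to 763 CPM in 10-week knockout and 722.7 to 793.9 CPM in 10-week wild-type libraries. At 4 weeks the same sum was 1275 to 1382 CPM in knockout and 947.6 to 1029 CPM in wild-type libraries. In culture it was 496.6 to 699.8 CPM with vitamin D3 and 461 to 462.9 CPM without. The mitotic sum over 25 members was 620.2 to 829.6 CPM in 10-week knockout and 784.2 to 817.4 CPM in 10-week wild type. It was 1534 to 1706 CPM in 4-week knockout, 1050 to 1131 CPM in 4-week wild type, 221.2 to 374.7 CPM with vitamin D3 and 193.9 to 237.9 CPM in untreated culture. Both sums were thus highest in 4-week knockout libraries, and the mitotic sum of every culture library lay below that of every fresh library.

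Mki67, which coats mitotic chromosomes and is the usual marker of cycling cells, was at 153.2 and 103.7 CPM in 10-week knockout and 149.9 and 139.8 CPM in 10-week wild-type libraries. Its 4-week levels were 290.9 and 304.9 CPM in knockout and 164.7 and 185.6 CPM in wild-type libraries. It was at 38.9 and 13.5 CPM with vitamin D3 and 27.8 and 16.8 CPM without. The 4-week knockout pair was the highest, the 10-week libraries overlapped between genotypes, and the culture libraries overlapped between treatments.

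**Figure D2:**
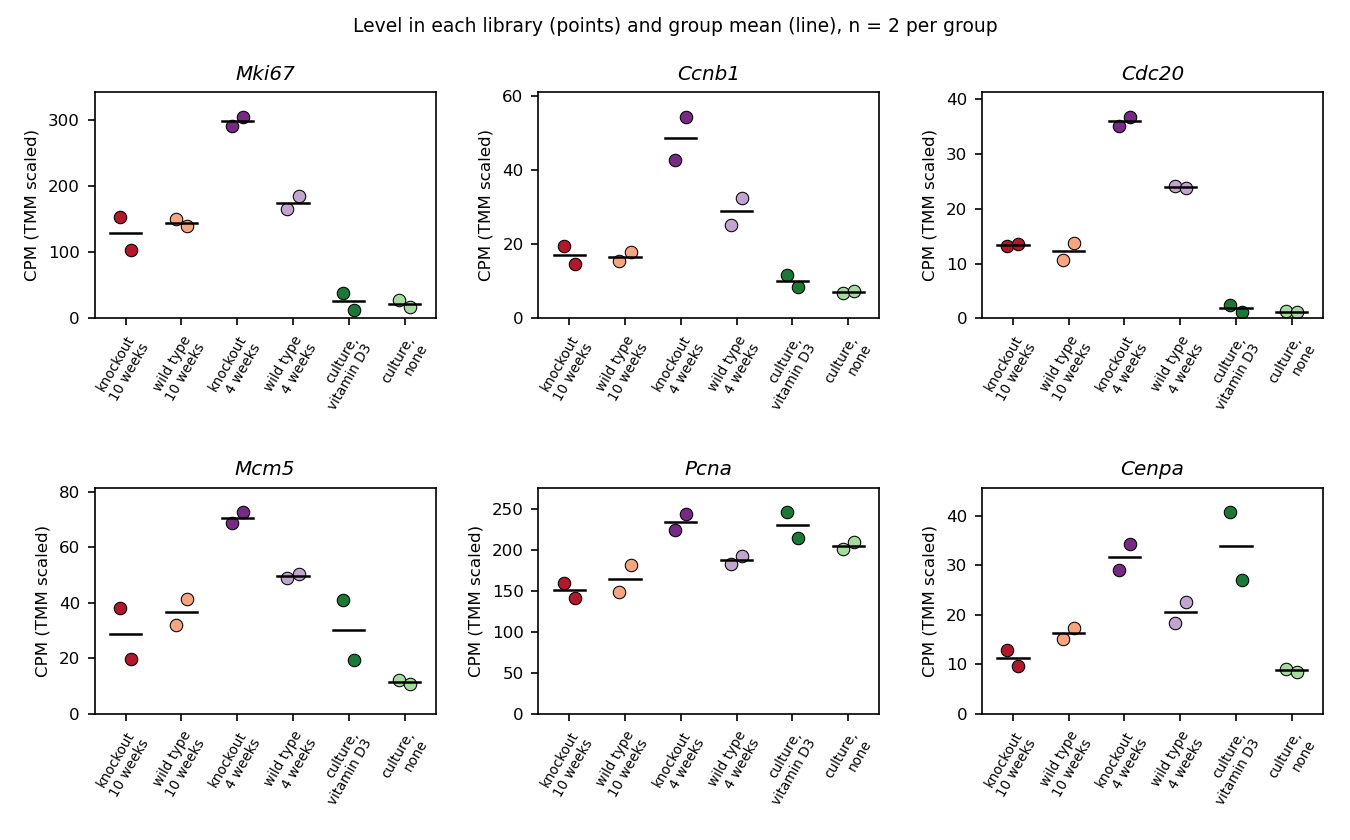
Level in CPM of 6 members in each library (points) with the group mean (line), 2 libraries per group, on linear axes that start at 0. Mki67, Ccnb1 and Cdc20 are highest in the 4-week knockout pair and lowest in culture, Pcna in untreated culture, at 201.2 and 209.8 CPM, lies above the 183.3 and 193.6 CPM of 4-week wild-type cells, and Cenpa and Mcm5 are higher with vitamin D3 than without.

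Other members that start replication were also highest in 4-week knockout cells. Cdc6, which loads the helicase ring onto origins, was at 6.92 and 5.33 CPM in 10-week knockout and 7.58 and 8.79 CPM in 10-week wild-type libraries, and at 14.9 and 16.1 CPM in 4-week knockout and 7.96 and 11.8 CPM in 4-week wild-type libraries. In culture Cdc6 was at 3.25 and 0.703 CPM with vitamin D3 and 0.985 and 1.38 CPM without. The 4-week knockout pair was the highest and all culture libraries lay below all fresh ones. Cdc45, which turns the loaded ring into an active helicase, was at 9.07 and 6.33 CPM in 10-week knockout and 7.58 and 9.81 CPM in 10-week wild-type libraries, and at 17.6 and 16.6 CPM in 4-week knockout and 11.9 and 12.1 CPM in 4-week wild-type libraries. In culture Cdc45 was at 6.44 and 3.02 CPM with vitamin D3 and 2.90 and 2.67 CPM without. Again no other library reached the 4-week knockout pair. Ccne2, the second E-type cyclin, spanned 15.2 to 17.2 CPM in 4-week knockout libraries, 4.70 to 11.7 CPM in the other fresh libraries and 0.492 to 3.20 CPM in culture. Mcm2, another ring subunit, spanned 71.4 to 77.3 CPM in 4-week knockout libraries, 27.9 to 54.9 CPM in the other fresh libraries and 17.6 to 40.4 CPM in culture, so that its culture range reached into that of fresh cells.

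So were most mitotic members with other roles. Cdk1, the kinase that drives entry to mitosis, was at 19.99 and 17.89 CPM in 10-week knockout and 19 and 22.6 CPM in 10-week wild-type libraries, and at 41.9 and 50.5 CPM in 4-week knockout and 28.3 and 30.6 CPM in 4-week wild-type libraries. In culture Cdk1 was at 11.5 and 4.57 CPM with vitamin D3 and 5.42 and 5.51 CPM without. Top2a, the topoisomerase that untangles sister DNA, was at 95 and 60.6 CPM in 10-week knockout and 87.7 and 90.9 CPM in 10-week wild-type libraries, and at 161.8 and 175.9 CPM in 4-week knockout and 107.4 and 118.6 CPM in 4-week wild-type libraries. In culture Top2a was at 25.3 and 7.94 CPM with vitamin D3 and 10.5 and 7.69 CPM without. For both genes the 4-week knockout pair lay above, and the culture libraries below, all others. Ccna2, the cyclin of S phase and early mitosis, spanned 70.0 to 77.8 CPM in 4-week knockout libraries, 29 to 53.6 CPM in the other fresh libraries and 3.02 to 9.34 CPM in culture. Kif11, the motor that pushes spindle poles apart, spanned 56.9 to 65.7 CPM in 4-week knockout libraries, 24.2 to 47.4 CPM in the other fresh libraries and 2.02 to 7.03 CPM in culture. Among checkpoint kinases, Bub1 spanned 31.2 to 38 CPM in 4-week knockout libraries, 9.04 to 21.1 CPM in the other fresh libraries and 1.124 to 4.131 CPM in culture, and Ttk spanned 8.80 to 9.95 CPM in 4-week knockout libraries, 3.90 to 6.90 CPM in the other fresh libraries and 0.421 to 1.57 CPM in culture. These 4 genes too had no overlap between the 3 sets of libraries. Nusap1, a binder of spindle microtubules, spanned 39.6 to 48.2 CPM in 4-week knockout libraries, 15 to 27.7 CPM in the other fresh libraries and 1.33 to 4.67 CPM in culture, while the spindle pole kinase Aurka spanned 16.4 to 20.5 CPM in 4-week knockout libraries, 7.44 to 16.6 CPM in the other fresh libraries and 1.83 to 3.59 CPM in culture, so that its 4-week knockout libraries overlapped other fresh ones.

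Age was compared within each genotype, to set cells of older mice against those of younger ones. In knockout cells 38 of 44 members were lower at 10 than at 4 weeks (17 of 19 S-phase, 21 of 25 mitotic), against a background of 4.83% of genes tested that were lower and 4.89% that were higher. All 44 had lower values at 10 weeks, beside 48.2% of genes tested, and the 10-week and 4-week libraries did not overlap for any of the 44, beside 27.9% of genes tested. The median log2 fold change was -1.11 for S-phase and -1.18 for mitotic members, and 0.01 for all genes.

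Ccnb1, a B-type cyclin that activates CDK1 at the entry to mitosis, was at 19.5 and 14.7 CPM in 10-week and 42.8 and 54.4 CPM in 4-week knockout libraries, a log2 fold change of -1.49 ± 0.20 (adjusted p = 0.00152). Cdc20, which switches on the anaphase-promoting complex, was at 13.2 and 13.6 CPM against 35 and 36.8 CPM, a change of -1.42 ± 0.20 (adjusted p = 0.00169). Both pairs were far apart beside their own spread. Kif20a, a motor of cytokinesis, fell by 1.24 ± 0.17 on the log2 scale (adjusted p = 0.00194), with 22.4 and 23.1 CPM at 10 weeks and 49.2 and 58.0 CPM at 4 weeks. Cenpa was at 12.9 and 9.76 CPM at 10 weeks and 29.1 and 34.4 CPM at 4 weeks (-1.47 ± 0.21, adjusted p = 0.00227). Plk1, a master kinase of mitosis, changed by -1.50 ± 0.24, and Aurkb and Birc5, kinase and partner in the chromosomal passenger complex, by -1.45 ± 0.24 and -1.08 ± 0.17. Tpx2, the activator of Aurora A, changed by -0.94 ± 0.15, and adjusted p-values of these last 4 ran from 0.00385 to 0.00397.

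Among S-phase members the smallest p went to enzymes of nucleotide supply. Tyms, thymidylate synthase, was at 20.5 and 19.4 CPM in 10-week and 34.9 and 34.2 CPM in 4-week knockout libraries, a log2 fold change of -0.79 ± 0.14 (adjusted p = 0.00579). Rrm1, the large subunit of ribonucleotide reductase, was at 66.5 and 54.7 CPM against 107.2 and 127.3 CPM (-0.95 ± 0.17, adjusted p = 0.00616). The thymidine salvage kinase Tk1 changed by -1.27 ± 0.26 (adjusted p = 0.0113). Mcm3 and Mcm7, 2 of the 6 subunits of the replicative helicase ring, changed by -0.98 ± 0.18 and -1.05 ± 0.21, and all 6 Mcm genes fell. Pcna, the sliding clamp of DNA polymerases, had a smaller change of -0.63 ± 0.12 (adjusted p = 0.00796), with 160.1 and 142.2 CPM at 10 weeks and 225.3 and 243.8 CPM at 4 weeks. Ccne1, a cyclin of the entry to S phase, and Uhrf1, which reads hemimethylated DNA behind the fork, changed by -1.44 ± 0.28 and -1.41 ± 0.28 (adjusted p = 0.0096 and 0.00974).

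The 6 members that did not pass in knockout cells were Cdc6, E2f1, Mki67, Top2a, Cenpf and Ttk. Mki67 had a log2 fold change of -1.21 ± 0.35 (adjusted p = 0.0529), while that of E2f1, named after its value was seen, was -0.29 ± 0.11 (adjusted p = 0.125). The number called fell to between 7 and 25 when a library was left out. It was 25 without 10-week replicate 1, 11 without 10-week replicate 2, 21 without 4-week replicate 1, 7 without 4-week replicate 2, and 9 without both Xist libraries. With the 2 libraries of conflicting labels exchanged, 11 S-phase and 19 mitotic members were called. That exchange called 821 of all genes, beside 1240 in the reported fit. Ccnb1, Cdc20, Birc5, Aurkb, Kif20a, Cenpa and Tpx2 were called in each of the 4 fits that left out a library.

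In wild-type cells all 44 members again had lower values at 10 than at 4 weeks, beside 50.6% of genes tested, with a median log2 fold change of -0.47 beside 0 for all genes, and 41 of 44 did not overlap, beside 26.8%. By the test 1 member fell, Cdc20, where the background was 0.706% of genes lower and 1.4% higher. Cdc20 was at 10.6 and 13.8 CPM in 10-week and 24.2 and 23.8 CPM in 4-week wild-type libraries, a log2 fold change of -0.98 ± 0.20 (adjusted p = 0.0278). Kif20a, at 20.8 and 23.8 CPM against 37.3 and 36.1 CPM, had -0.72 ± 0.17 (adjusted p = 0.057), and Ccnb1, at 15.4 and 18 CPM against 25.3 and 32.5 CPM, had -0.80 ± 0.20 (adjusted p = 0.0625). Mcm7 (-0.55 ± 0.21), Mcm3 (-0.45 ± 0.17), Ccne1 (-0.70 ± 0.28), Pcna (-0.19 ± 0.12) and Mki67 (-0.27 ± 0.35) had adjusted p-values from 0.191 to 0.718. Each 10-week wild-type library on its own was below the 4-week mean for all 44 members, by medians of -0.50 and -0.42, and each 10-week knockout library was too, by -0.97 and -1.35. Of 12748 genes tested, 6303 and 6268 were below it in the wild-type libraries and 6181 and 6219 in the knockout libraries.

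Among all genes, calls with age in wild type varied with the fit. They numbered 676 with DESeq2, 606 with the compared groups alone and 1223 with no filter, beside 269 in the reported fit. The wild-type count of members depended on the libraries and on the fit. It was 0 without 10-week replicate 1, without either 4-week library and without the Xist libraries, 4 with DESeq2, 14 when the fit held the compared groups alone and 20 with no filter on low counts. Red cell markers also moved with age, since their summed level was 48.2 to 53.1 CPM in 10-week and 347.8 to 644.3 CPM in 4-week knockout libraries, and 70.8 to 161 CPM in 10-week and 1332 to 3151 CPM in 4-week wild-type libraries. Of the 6 tested of 7 such markers, 3 fell in knockout and 4 in wild type. Some other markers were higher at 10 weeks. Epithelial ones summed to 330.2 to 476.1 CPM in 10-week and 140.1 to 333.1 CPM in 4-week knockout libraries, and to 255.6 to 308.3 CPM in 10-week and 116.5 to 185.1 CPM in 4-week wild-type libraries. The knockout ranges overlapped, and 2 of 7 epithelial markers rose in knockout and 1 in wild type. Monocyte markers summed to 2374 to 3832 CPM in 10-week and 1481 to 1829 CPM in 4-week knockout libraries, with none called. Of 10 alveolar macrophage markers, 2 rose and 2 fell in knockout, and 1 fell in wild type. Among them Marco, named after its value was seen, was at 290.6 and 141.5 CPM in 10-week and 2195 and 2086 CPM in 4-week knockout libraries. In wild-type libraries Marco was at 365 and 330.1 CPM at 10 weeks and 443.3 and 455 CPM at 4 weeks. The part of these markers in the age difference was not tested. Age and title series overlap in part: the D14-5 library of each 10-week group was below the 4-week mean for all 44 members, as was the D14-1 library. The D14-5 libraries at 10 weeks were those with high Xist and little Ddx3y, female by these genes. The D14-1 libraries and all 4-week libraries had little Xist and were male by them. Thus no 10-week library matched the 4-week libraries in both title series and sex, and the part of either in the age difference was not tested.

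**Figure D3:**
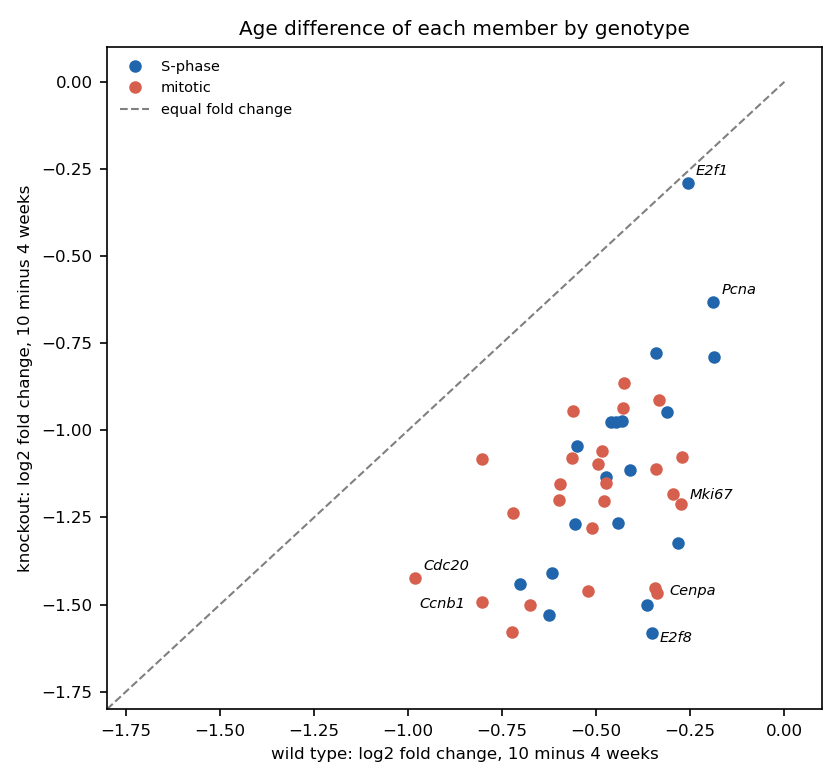
Log2 fold change of 10 over 4 weeks for each of the 44 members in knockout cells (vertical axis) against wild-type cells (horizontal axis), with a dashed line where both would be equal. All points lie below 0 on both axes and below the line, with E2f1 nearest to it and E2f8 and Cenpa among the farthest from it, but the difference passed the test for no member.

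That plot compares fold changes from separate libraries, and the difference between them is the genotype by age interaction. It was lower than 0 for all 44 members, where 49.4% of genes tested were, with a median of -0.67 beside 0 for all genes. No member passed the edgeR test (background 0.188% called) or the test of DESeq2, and 8 had an unadjusted p under 0.05, beside 8.65%. The smallest p belonged to Cenpa (-1.13 ± 0.29, adjusted p = 0.254) and Aurkb (-1.11 ± 0.33, adjusted p = 0.358) in mitosis, and to Tyms (-0.60 ± 0.20, adjusted p = 0.417) in S phase. Mki67 had -0.94 ± 0.50 (adjusted p = 0.643) and Pcna -0.44 ± 0.17 (adjusted p = 0.519). With no filter 14 members passed, all lower, and 1 passed when the fit held the fresh groups alone. Among all genes those fits called 392 and 52, beside 24 in the reported fit. The interaction shares its libraries with the age and genotype comparisons and adds no separate evidence. Of 10 alveolar macrophage markers 1 was called in the interaction, with a value below 0, and its part was not tested.

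At 4 weeks values were higher in knockout than in wild-type cells for 43 of 44 members, beside 48.8% of genes tested, with a median log2 fold change of 0.51 in S-phase and 0.55 in mitotic members beside -0.01 for all genes. No member passed the edgeR test, where 0.667% of genes tested were called, although the libraries did not overlap, with knockout higher, for 42 of 44, beside 24% of genes. An unadjusted p under 0.05 was reached by 22 members, beside 12% of genes tested. Ccnb1 had the smallest p, with 42.8 and 54.4 CPM in knockout and 25.3 and 32.5 CPM in wild-type libraries (0.74 ± 0.19, adjusted p = 0.132). Birc5 was at 40.3 and 41.1 CPM against 25.9 and 28.3 CPM (0.59 ± 0.17, adjusted p = 0.185), and Kif20a had 0.55 ± 0.17 (adjusted p = 0.219).

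Among S-phase members, Tyms had 0.51 ± 0.14 (adjusted p = 0.151), Rrm1 had 0.60 ± 0.17 (adjusted p = 0.166) and Mcm3 had 0.48 ± 0.17 (adjusted p = 0.294). Mki67 had 0.77 ± 0.35 (adjusted p = 0.417) and Pcna 0.32 ± 0.12 (adjusted p = 0.315). E2f1 alone had a lower value, with 62.8 and 63.6 CPM in knockout and 65.3 and 70.5 CPM in wild-type libraries. The knockout libraries here are those of the age comparison, so the 2 results are not independent. The count depended on the fit: 2 members were called with DESeq2, 32 when the fit held only the 4-week groups and 25 with no filter, all higher in knockout. Calls among all genes rose in the same fits, to 261, 635 and 690, from 85 in the reported one. Red cell markers ran the other way at this age, at 347.8 to 644.3 CPM in knockout and 1332 to 3151 CPM in wild-type libraries. So did dendritic cell markers, at 18.3 to 19.1 CPM against 33.8 to 98 CPM, and Cd2, at 127.6 and 136.5 CPM against 203.9 and 182.4 CPM. Of 10 alveolar macrophage markers, 7 had higher and 3 lower values in knockout, with 1 called higher and 0 called lower. Among them Marco was at 2195 and 2086 CPM in knockout and 443.3 and 455 CPM in wild-type libraries. The part of all these markers in the difference was not tested.

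At 10 weeks no difference between genotypes passed in these genes. No member passed the edgeR test (background 0.11% called) or that of DESeq2, and 1 had an unadjusted p under 0.05, Cenpa, beside 9.76% of genes tested. Values were lower in the libraries labelled knockout for 37 of 44 members, beside 51.5% of genes tested, with a median of -0.13 beside -0.01 for all genes. Cenpa was at 12.9 and 9.76 CPM in knockout and 15.2 and 17.4 CPM in wild-type libraries (-0.50 ± 0.21, adjusted p = 0.474). E2f8, a repressor that shuts off E2F targets after S phase, was at 7.70 and 7.23 CPM against 12.7 and 14.8 CPM (-0.87 ± 0.41, adjusted p = 0.538). Aurkb (-0.41 ± 0.24), Cenpe (-0.34 ± 0.34), Ccne2 (-0.52 ± 0.43), E2f1 (-0.14 ± 0.11), Mki67 (-0.17 ± 0.35) and Pcna (-0.13 ± 0.12) had adjusted p-values from 0.653 to 0.928.

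The 2 replicate pairs at this age went opposite ways. Between the libraries numbered 1, of the D14-1 title series, 31 of 44 members were higher in knockout, beside 49.4% of genes tested, with a median of 0.10. Between those numbered 2, of D14-5 and with Xist, 43 of 44 were lower in knockout and 1 higher, beside 48.1% of genes tested that were higher, with a median of -0.36. Knockout replicate 1, whose description code names wild type, was above knockout replicate 2 for 38 of 44 members, beside 51.8% of genes tested, by a median of 0.39. Both knockout libraries lay below both wild-type libraries for 12 of 44 members, E2f8 and Cenpa among them, beside 20.9% of genes tested. They lay above both for 1 member, beside 19.7% of genes tested. Over both ages together no member passed (0.996% of genes called). Values were higher in knockout for 42 of 44, beside 48.1% of genes tested, and the median was 0.21. There 5 members had an unadjusted p under 0.05, beside 13.1% of genes tested, led by Ccnb1 (0.40 ± 0.14, adjusted p = 0.242) and Birc5 (0.33 ± 0.12, adjusted p = 0.276).

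**Figure D4:**
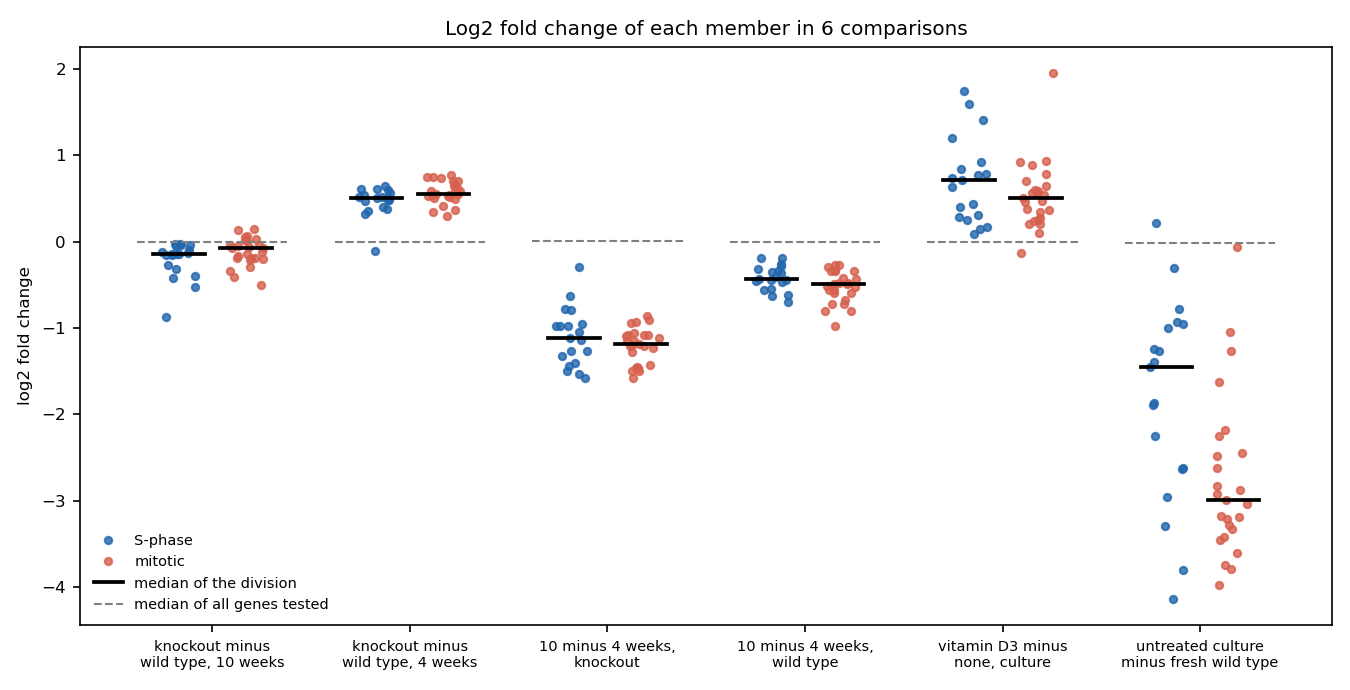
Log2 fold change of every member (points) in 6 comparisons, S-phase genes in blue and mitotic genes in red, with the median of each division (black line) and of all genes tested (grey dashed line). Most members lie near 0 between genotypes at 10 weeks, with E2f8 lowest at -0.87. Most lie above 0 between genotypes at 4 weeks and with vitamin D3, where the shift rested on replicate 1. All lie below 0 with age, and all but Pcna in untreated culture, where the mitotic median of -2.99 is lower than the S-phase median of -1.45.

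Culture was compared with fresh cells by setting untreated wild-type culture against the mean of fresh wild-type cells at both ages. In untreated culture 41 of 44 members fell (17 of 19 S-phase and 24 of 25 mitotic), against a background of 22.3% of genes tested that were lower. The median log2 fold change was -1.45 in S-phase and -2.99 in mitotic members, beside -0.02 for all genes. All 4 culture libraries lay below all fresh libraries for 34 members, 11 S-phase and 23 mitotic, beside 16.6% of genes tested. Cdc20 was at 1.37 and 1.13 CPM in untreated culture, against 10.6 and 13.8 CPM in fresh cells at 10 weeks and 24.2 and 23.8 CPM at 4 weeks, a log2 fold change of -3.74 ± 0.24 (adjusted p = 2.81e-07).

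Mitotic members that fell included the cyclin Ccnb2 (-3.60 ± 0.26), the kinetochore protein Cenpf (-3.98 ± 0.34) and the transcription factor Foxm1 (-3.21 ± 0.28), which drives genes of mitosis. Factors of the central spindle and cytokinesis fell as well, among them Prc1 (-3.04 ± 0.22), Kif23 (-3.17 ± 0.25) and Kif20a (-2.88 ± 0.19), as did Birc5 (-2.99 ± 0.20) and Mki67 (-2.82 ± 0.36). In these mitotic members the adjusted p was 6.24e-05 or less. In S phase, E2f8 had the lowest fold change at -4.13 ± 0.50, with 0.985 and 0.729 CPM in untreated culture and between 12.7 and 17.8 CPM in fresh wild-type libraries. Rrm2, the small subunit of ribonucleotide reductase, changed by -3.29 ± 0.40, Uhrf1 by -2.63 ± 0.29, Tk1 by -2.62 ± 0.27 and Mcm7 by -2.25 ± 0.21. E2f1 (-0.93 ± 0.10), Mcm4 (-1.26 ± 0.17) and Mcm6 (-1.45 ± 0.20) had smaller changes, all with an adjusted p of 0.000104 or less.

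The Mcm genes thus did not move as a block, although their proteins form 1 ring. Mcm3 did not pass, at 55.7 and 48.9 CPM in untreated culture against 58.0, 53.0, 71.1 and 80.4 CPM in fresh wild-type libraries (-0.31 ± 0.15, adjusted p = 0.122). Pcna was at 201.2 and 209.8 CPM in untreated culture, above all fresh wild-type libraries at 149.3, 181.6, 183.3 and 193.6 CPM, with a log2 fold change of 0.22 ± 0.10 that did not pass (adjusted p = 0.102). Without 10-week wild-type replicate 2 it passed as higher (0.30, adjusted p = 0.0402). Bub1b, which encodes the checkpoint protein BUBR1, was at 105.3 and 83.9 CPM in untreated culture and overlapped the fresh libraries, which ran from 81.8 to 116.9 CPM (-0.06 ± 0.14, adjusted p = 0.725). Mcm3 and Bub1b were named here because they did not pass, after their values were seen. The other 24 mitotic members passed. The 6 genes with printed promoters all fell, Tk1, Mcm7 and Uhrf1 by 2.25 to 2.63 and Birc5, Prc1 and Cdc20 by 2.99 to 3.74 on the log2 scale, but they were chosen by a test that includes this difference.

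Many other genes differed as well: 45.8% of all genes tested were called between untreated culture and fresh wild-type cells. Markers of most cell types listed were also lower there, with 5 of 6 red cell, 6 of 7 epithelial, 5 of 6 dendritic, 3 of 4 monocyte and 3 of 4 neutrophil markers tested called lower. So were 5 of 10 alveolar macrophage markers, with 2 called higher, and their sum was 12340 to 12350 CPM in untreated culture and 22710 to 28920 CPM in fresh wild-type libraries. Red cell markers summed to 0.602 to 1.86 CPM in untreated culture and 70.8 to 3151 CPM in fresh wild-type libraries, with 5 of 7 at 0 in both untreated libraries. Epithelial markers summed to 30.1 to 31.3 CPM against 116.5 to 308.3 CPM, and the part of all these markers in the difference was not tested. Within a title series, untreated culture was below 10-week wild type for 42 of 44 members both in D14-1 (median -2.21) and in D14-5 (median -2.43). Of 12748 genes tested, 6568 and 6449 were lower there. The fresh D14-5 library held Xist and the culture library did not. Gins2, a subunit of the helicase complex, was called in 3 of the 6 fits that left out a library, and its count is uncertain because 70.7% of its exonic bases lie in Gse1 on the GENCODE vM21 annotation.

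With vitamin D3 in culture 3 of 44 members rose, Cenpa of the 25 mitotic and Mcm5 and Uhrf1 of the 19 S-phase genes, against a background of 5% of genes tested that were higher. The share of members called was thus not far from that background. Cenpa was at 40.7 and 27.0 CPM with vitamin D3 and 9.08 and 8.50 CPM without, a log2 fold change of 1.95 ± 0.22 (adjusted p = 0.000186). Both treated libraries stood above both untreated ones, and replicate 1 was also above every fresh library, the highest of which had 34.4 CPM. Cenpa passed in each fit that left out a library, with a largest adjusted p of 0.00263.

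Mcm5 was at 40.9 and 19.5 CPM with vitamin D3 and 12.1 and 10.7 CPM without (1.41 ± 0.34, adjusted p = 0.0195). Uhrf1 was at 19.4 and 8.22 CPM against 6.62 and 5.51 CPM (1.2 ± 0.32, adjusted p = 0.0332). For both genes the groups did not overlap, but replicate 1 was well above replicate 3. Neither passed without vitamin D3 replicate 1, at 0.76 for Mcm5 (adjusted p = 0.253) and 0.42 for Uhrf1 (adjusted p = 0.427), nor without either untreated library. Mcm6 (0.73 ± 0.22, adjusted p = 0.0538), Birc5 (0.64 ± 0.23, adjusted p = 0.107) and Ube2c (0.92 ± 0.39, adjusted p = 0.172), a ubiquitin-conjugating enzyme of the anaphase-promoting complex, had higher values and did not pass. Mki67 (0.24 ± 0.38) and Pcna (0.17 ± 0.12) had adjusted p-values of 0.775 and 0.448.

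Values were higher with vitamin D3 for 43 of 44 members, all but Kif23, beside 49.8% of genes tested, with medians of 0.71 in S phase and 0.50 in mitosis beside 0 for all genes, and this rested on 1 library. Vitamin D3 replicate 1 was above the mean of the untreated libraries for all 44 members, by a median of 0.92, whereas replicate 3 was above it for 23 and below it for 21, with a median of 0. Of 12748 genes tested, 6430 were above it in replicate 1 and 6361 in replicate 3. Without replicate 1, 1 member passed (Cenpa) and the median was -0.01, while without replicate 3 there were 22. The groups did not overlap, with vitamin D3 higher, for 10 S-phase and 4 mitotic members, beside 24.2% of genes tested. The count of members called was 8 with DESeq2, 18 with no filter and 1 when the fit held the culture groups alone. Among all genes those fits called 1605, 1989 and 644, beside 1356 in the reported fit. Monocyte markers were at 725.6 CPM in vitamin D3 replicate 1 and 246.2 CPM in replicate 3, and at 681 and 179.4 CPM in the untreated libraries of the same title series, and their part in the replicate gap was not tested. Cd2 was at 120.2 and 134.9 CPM with vitamin D3 and 217.3 and 224.6 CPM without, and its part was not tested either.

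**Figure D5:**
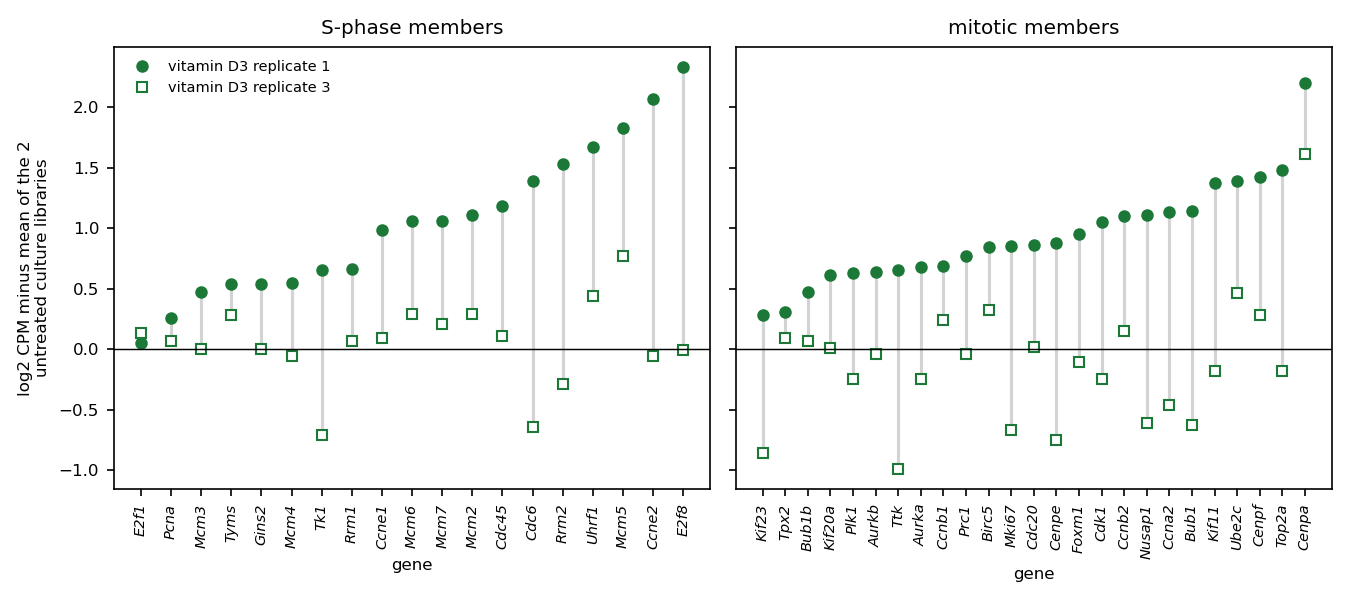
Log2 CPM of each member in each vitamin D3 library less the mean of the 2 untreated culture libraries, for S-phase genes (left) and mitotic genes (right), sorted by replicate 1. Replicate 1 (filled circles) lies above 0 for all 44 genes, while replicate 3 (open squares) lies on both sides of 0, between -0.99 for Ttk and 1.61 for Cenpa.

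Other genes of the same pathways were taken from lists of textbook roles. Of 42 further replication genes, 22 fell with age in knockout cells and 1 in wild type, beside 4.83% and 0.706% of genes tested. That 1 gene was Cdt1, the partner of CDC6 in loading the helicase, at 33.7 and 32.8 CPM in 10-week and 70.9 and 80.6 CPM in 4-week knockout libraries (-1.19 ± 0.10, adjusted p = 8.72e-05). In wild type Cdt1 was at 36.6 and 38 CPM against 59.5 and 61.4 CPM (-0.70 ± 0.10, adjusted p = 0.0058). Lig1, the ligase that joins Okazaki fragments, Chaf1a, a chaperone of new histones, and Fen1, the flap nuclease, fell in knockout cells by 1.26 ± 0.19, 1.08 ± 0.16 and 0.83 ± 0.14 on the log2 scale. Of 44 further mitotic genes, 27 fell with age in knockout cells and 0 in wild type. In knockout cells Cdca8 of the passenger complex led (-1.52 ± 0.23, adjusted p = 0.00259).

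With vitamin D3, 3 of the 42 further replication genes and 2 of the 44 further mitotic genes rose, beside 5% of genes tested, so that neither share stood far from the background. This comparison shares its untreated libraries with that of culture and fresh cells. Cdc7, the kinase that fires replication origins, was at 23.5 and 20.2 CPM with vitamin D3 and 6.24 and 5.51 CPM without (1.89 ± 0.22, adjusted p = 0.000275), with both treated libraries above all fresh ones. Lig1 and the licensing inhibitor Gmnn rose by 0.75 ± 0.19 and 0.61 ± 0.18. In the mitotic list, Nek2, a centrosome kinase, rose by 2.05 ± 0.47 and Wee1, the kinase that holds CDK1 back, by 0.89 ± 0.20 (adjusted p = 0.017 and 0.015). Counts of Nek2 were low, at 2.61 and 1.34 CPM in vitamin D3 replicates 1 and 3 and 0.602 and 0.324 CPM without. Wee1 was also higher in knockout than in wild-type cells over both ages (0.83 ± 0.13, adjusted p = 0.0168), at 14.7 and 18.3 CPM in 10-week knockout and 7.88 and 9.34 CPM in 10-week wild type, and at 22.3 and 21.0 CPM in 4-week knockout and 12.9 and 13.2 CPM in 4-week wild type. It was the only gene of the further replication, mitotic and driver lists to pass in a comparison of genotypes.

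In untreated culture 25 of the 42 further replication genes fell and 5 rose, beside 22.3% lower and 23.5% higher among all genes tested. Pole, the catalytic subunit of DNA polymerase epsilon, fell by 2.73 ± 0.30, while Rfc2, a subunit of the loader that places PCNA on DNA, was at 48.8 and 53.5 CPM in untreated culture and between 28 and 31.9 CPM in fresh wild-type libraries (0.74 ± 0.10, named after its value was seen). Of the 44 further mitotic genes 42 fell, led by the cytokinesis scaffold Anln at -4.35 ± 0.22.

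Cell cycle drivers moved in both directions with vitamin D3. Ccnd2, a D-type cyclin that starts the cycle, was at 329.4 and 313.8 CPM with vitamin D3 and 101.5 and 126.6 CPM without (1.5 ± 0.24, adjusted p = 0.002). Ccnd3, another D-type cyclin, was at 26 and 27 CPM against 43.4 and 47.5 CPM (-0.78 ± 0.10, adjusted p = 0.000595). Mybl2, the B-MYB factor, and Myc rose by 1.24 ± 0.30 and 0.65 ± 0.17 (adjusted p = 0.0212 and 0.0332), so that 3 of 18 drivers tested rose and 1 fell, beside 5% and 5.63% of genes tested. In untreated culture 13 drivers fell, beside 22.3% of genes tested, among them Ccnd3, Mybl2, Myc and Cks2. Cdk4, the kinase partner of D-type cyclins, rose by 1.02 ± 0.12 and was named after its value was seen. With age in knockout cells 6 drivers fell, beside 4.83% of genes tested, led by Cdk2 (-0.70 ± 0.11, adjusted p = 0.00385). In wild type 0 drivers fell with age, beside 0.706% of genes tested.

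Of 17 brakes on the cycle, Btg2, an antiproliferative gene, was lower in knockout at 4 weeks, at 70.3 and 75.8 CPM in knockout and 180.8 and 137.2 CPM in wild-type libraries (-1.12 ± 0.17, adjusted p = 0.0123). At 10 weeks Btg2 was at 107.6 and 83.2 CPM in knockout and 168 and 139.9 CPM in wild-type libraries and did not pass. Over both ages together it passed as lower in knockout (-0.91, adjusted p = 0.00637). No other brake passed between genotypes in edgeR, where 5 of 17 had an unadjusted p under 0.05 at 4 weeks and 1 at 10 weeks, beside 12% and 9.76% of genes tested. With vitamin D3 no brake passed the edgeR test, and 4 had an unadjusted p under 0.05, beside 23.5% of genes tested. In untreated culture 12 brakes fell, beside 22.3% of genes tested, among them the repressor E2f7 (-4.33 ± 0.48) and Rbl1, a relative of the retinoblastoma gene (-1.12 ± 0.10). The retinoblastoma gene Rb1, at 116.2 and 156.8 CPM in untreated culture and between 74.1 and 83.7 CPM in fresh wild-type libraries, rose by 0.83 ± 0.16, and Cdkn2b, a CDK inhibitor, rose by 1.28 ± 0.36. These 2 were named after their values were seen.

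Some members share sequence with other genes, which the counting may have split or merged, since no source used here gives its strand setting. On the GENCODE vM21 annotation (GRCm38), 13 members share exonic bases with a neighbour, 8 of them over 10%. Besides Gins2 these include Kif20a (31.8%, Cdc23), Ube2c (22.8%, Tnnc2), Prc1 (21.8%, Rccd1), E2f8 (15.7%), Mcm7 (13%), Ccne2 (10.5%) and Ccna2 (10.4%). Pcna, Tyms, Ccnb1 and Ccnb2 have annotated pseudogenes, so their levels are uncertain to the extent that reads were shared.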

How the data were processed

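Raw counts per gene were deposited by the authors in 1 table of 23413 genes, whose count columns are named for the 12 library titles. The submitters' processing notes list TopHat2, edgeR and mm9. No source used here says which tool counted the reads, or with which annotation and strand setting. A second deposited table, of log2 values, was not used. Per the labels' protocols, cells came from lavage and libraries were made for mRNA.

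Genes were tested with edgeR 4.0.16 (R 4.3.3), by its quasi-likelihood F test after TMM scaling. A gene entered the fit if it passed filterByExpr by group, with minimum counts of 10 in a library and 15 in all, as 12748 did. The fit held all 12 libraries, with 6 group coefficients and 6 residual degrees of freedom. Benjamini-Hochberg adjustment ran over all genes tested, at a threshold of 0.05. With 2 libraries against 2, the smallest two-sided p of an exact rank test is 0.333. In a library 1 count was worth 0.0483 to 0.0904 CPM.

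The 44 members, the 4 further lists (42, 44, 17 and 19 genes) and the tests were chosen with earlier results of these data known. Any member may be named with its levels. Fold changes were given per comparison and division for members past the threshold, up to the 8 of smallest p, for the 3 of smallest p where fewer passed, and for Mki67 and Pcna. In the further lists up to 4 genes past the threshold per comparison were named. Genes named outside this rule are said to be so. The code was tested on simulated counts with 200 genes changed. Alternatives were DESeq2 1.42.0, DESeq2 size factors within edgeR, no filter, at least 5 CPM in 2 libraries as a filter, the compared groups alone in the fit, the replicate number as a block, exchange of the 2 libraries with conflicting labels, and leaving out each library. Leaving out both Xist libraries was added after the data were seen. Promoters (RefSeq) and exons (GENCODE vM21) were on GRCm38 and served for letters and overlaps only, as the counts are on mm9.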

Additional observations from a re-analysis of the deposited data

How the results depend on the processing

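All 44 members differed among the 6 groups under each alternative tried. Of 122 counts of called members recomputed under an alternative, 92 stayed within 1.5 times the reported count and 30 did not. With no filter on low counts the number called was 1 between genotypes at 10 weeks, 25 at 4 weeks, 2 over both ages, 14 for the interaction, 20 with age in wild type and 18 with vitamin D3. Calls among all genes rose there too, in the same order to 503, 690, 791, 392, 1223 and 1989. The reported fit called 14, 85, 127, 24, 269 and 1356 of all genes. With DESeq2 the number of members called was 2 between genotypes at 4 weeks, 4 with age in wild type and 8 with vitamin D3, beside 261, 676 and 1605 of all genes. A fit on the compared groups alone called 32 between genotypes at 4 weeks, 1 for the interaction, 14 with age in wild type and 1 with vitamin D3. Of all genes it called 635, 52, 606 and 644. With the replicate block the counts were 1 between genotypes at 4 weeks, 4 with age in wild type and 6 with vitamin D3 (there by title series). Of all genes that fit called 183, 567 and 1703. The replicate numbers were not shown to pair libraries, as same-numbered libraries deviated together with correlations of 0.122 at 10 weeks, -0.119 at 4 weeks and 0.272 by title series in culture. Exchange of the 2 libraries with conflicting labels gave 2 with age in wild type and 11 S-phase members with age in knockout cells, against the 17 reported. Of all genes it called 331 and 821, beside 269 and 1240 in the reported fit. Leaving out a library gave 7 to 25 with age in knockout cells, 0 to 1 with age in wild type, 1 to 22 with vitamin D3 and 40 to 41 in untreated culture. Without both Xist libraries there were 9 with age in knockout cells and 0 in wild type.

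Reversed signs fell in 2 comparisons. Between genotypes at 10 weeks the exchange of labels gave log2 fold changes of 0.12 for E2f8, 0.07 for Pcna and 0.27 for Aurkb. Leaving out 1 library there gave -0.26 to 0.02 for Pcna, highest without wild-type replicate 2, and -0.48 to 0.08 for Mki67, highest without knockout replicate 2. Without the Xist libraries these were 0.10 and 0.03. With vitamin D3, Mki67 ran from -0.74 without treated replicate 1, through -0.06 without untreated replicate 2, to 0.80 without treated replicate 3. The cause was not tested. Scaling by DESeq2 size factors changed no direction of a named member, and further lists were not recomputed. Depth limits members near 1 CPM in culture, such as E2f8, Ccne2 and Ttk, and genes of the further lists such as Nek2.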
